A study of Saccharomyces cerevisiae with 10 samples.

Results

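Budding yeast that already lacked SET5 was compared with yeast that lacked both SET5 and SET1, so that the comparison asked which transcripts stood at another level when SET1 was absent from a set5 deletion background. Members were all features of the table whose mean over the 5 strains reached 1 FPKM, which left 6541 of 6663 features, and each received 1 log2 ratio of the double deletion over set5Δ after 1 FPKM was added to both values. FPKM counts fragments scaled to transcript length and sequencing depth. All strains were haploid BY4741 cultured at 30 °C in rich YPD medium and collected in mid-log phase: the wild type, set1Δ, set5Δ, set1Δ set5Δ, and SET5 Y402A, in which Set5 carries that substitution. The labels list 2 replicates per strain, but the table holds 1 value per strain, so no difference here has a replicate check, no test was possible, the depth is unknown, and each ratio describes these strain values alone.

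Set1 is the catalytic subunit of COMPASS, the complex that methylates histone H3 on lysine 4. This methylation marks the 5′ ends of transcribed genes in yeast, and loss of Set1 is known to raise some repressed genes, among them genes near telomeres and middle sporulation genes. Set5 methylates lysines near the amino end of histone H4.

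In set5Δ the level of SET1 (YHR119W) was 24.2 FPKM, and in the double deletion it was 0.0324, beside 24.3 in the wild type and 0.0328 in set1Δ. SET5 (YHR207C) stood at 0.0545 FPKM in set5Δ and 0.0167 in the double deletion, against 34.6 in the wild type and 37.9 in set1Δ. Both deletions were thus visible in the strains labelled with them. The summed level of 7 markers of a cells was 165719 FPKM in set5Δ and 156788 in the double deletion, and that of 5 alpha-cell markers was 53.4 and 67.1, with MATALPHA1 near 0 at 0.0594 and 0.260 FPKM. The column sum was 2426410 FPKM in set5Δ and 2056298 in the double deletion, and 68 and 20 features were listed at 0. TEF1 and TEF2, which both encode the same abundant translation elongation factor, were listed at 0 in the double deletion and at 11708 and 12354 FPKM in set5Δ. At the edge of the membership rule, REC8 had a mean of 1.005 FPKM and was kept, and MEI5, with 0.979 FPKM, was not.

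Of the 6541 features, 187 (2.86%) stood 2-fold or more higher in the double deletion than in set5Δ and 70 (1.07%) stood 2-fold or more lower, while the median log2 ratio was 0.00, with 50.5% of features higher and 49.4% lower. Among the 187 higher features 104 were under 10 FPKM in both strains, 30 had no match in the annotation, 11 were noncoding and 30 had coding lengths under 300 bp, and these classes overlap. The scarcest features leaned upward as a whole. Those with a mean of 1 to 10 FPKM had a median log2 ratio of 0.33 over 748 features, 122 of them at least 2-fold higher and 5 lower, and those of at least 1000 FPKM had a median of -0.29 over 299 features. Set1Δ over the wild type, a pair of strains that shares no column with the comparison, had medians of 0.26 and -0.15 in the same classes. The part of this trend in the results on scarce and on abundant genes was not tested, and it is given beside them. The genes named below come mostly from the 5144 long coding genes, those of at least 300 bp of coding sequence, at least 10 FPKM in the higher strain and above 0 in both. Of these, 44 (0.855%) lay 2-fold or more above set5Δ and 40 (0.778%) lay 2-fold or more below it, and SET1 itself was among the latter, which leaves 39.

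**Figure D1:**
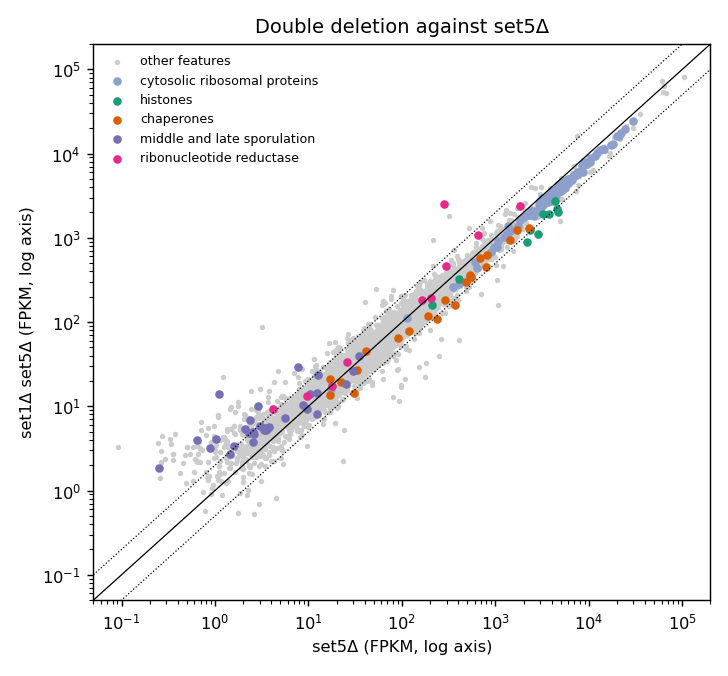
FPKM in the double deletion (y axis, log) against FPKM in set5Δ (x axis, log), 1 point per feature above 0 in both strains, with the line of equal levels and dotted lines at 2-fold. HUG1 (279 and 2554 FPKM) lies far above the upper dotted line, the histone genes lie below the line of equal levels, and the features at the left lie mostly above it.

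Genes of heat shock proteins and of protein sequestering factors were among those with the lowest ratios. HSP30 (YCR021C), which encodes a stress protein of the plasma membrane, stood at 93.5 FPKM in set5Δ and 11.4 in the double deletion, beside 17.9 in the wild type and 11.2 in set1Δ. Its log2 ratio of the double deletion over set5Δ was -2.93, the lowest among long coding genes other than SET1. With a pseudocount of 10 FPKM its ratio was -2.27 and that of YOL014W, a gene of unknown function, was lower at -2.40. BTN2 (YGR142W), which gathers misfolded proteins into deposits, stood at 98.4, 17.2, 29.3 and 19.0 FPKM in set5Δ, the double deletion, the wild type and set1Δ, a log2 ratio of -2.45. HSP42 (YDR171W), a small heat shock protein that does the same in the cytosol, stood at 153, 29.0, 29.0 and 26.7 FPKM in the same order, a log2 ratio of -2.36. For each of these genes set5Δ was the highest of the 4 strains, and the double deletion was near set1Δ. All 4 genes of the list of protein sequestering factors were lower in the double deletion, with a median log2 ratio of -1.65. The other two were CUR1, at 68.9 FPKM in set5Δ and 35.2 in the double deletion, and HSP26, at 55.3 and 41.4.

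Cytosolic and organelle chaperone genes, which fold or refold proteins, were lower as a list: 19 of 21 were lower in the double deletion, 3 of them at least 2-fold, with a median log2 ratio of -0.57 against 0.00 over all features. Of all features 49.4% were lower, and 1.07% were at least 2-fold lower. The median of the chaperone list was -0.44 with quantile-normalized values. SIS1, an Hsp40 partner of Hsp70, stood at 372 FPKM in set5Δ and 159 in the double deletion, beside 258 in the wild type and 179 in set1Δ, a log2 ratio of -1.22. FES1, a nucleotide exchange factor of Hsp70, had a log2 ratio of -1.12, APJ1, another Hsp40, -1.01, and SSA1, an Hsp70 that shares much of its sequence with SSA2, -0.82. The log2 ratio of set1Δ over the wild type was -0.53 for SIS1 and -0.67 for FES1, beside -0.63 for HSP30 and -0.11 for HSP42. The list's median of set1Δ over the wild type was -0.29.

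Stretches upstream of 3 of these genes are shown because they hold matches to elements that the heat shock and general stress factors are known to bind. Matches were searched on both strands in the 300 bases that end 100 bases before the annotated start codon, using GAANNTTC for the heat shock element, which reads the same on both strands, and AGGGG for the stress response element. Capitals mark the matches, and the sequences are those of RefSeq R64, 5′ to 3′ toward the gene. The HSP42 stretch lies at chrIV:806371-806470, plus strand, the BTN2 stretch at chrVII:772084-772183, plus strand, and the SIS1 stretch at chrXIV:619836-619935, minus strand.
HSP42: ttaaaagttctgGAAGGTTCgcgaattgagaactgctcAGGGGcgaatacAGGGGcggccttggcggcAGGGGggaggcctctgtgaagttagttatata
BTN2: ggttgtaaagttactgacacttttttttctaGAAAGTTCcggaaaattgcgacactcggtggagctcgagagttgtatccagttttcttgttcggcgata
SIS1: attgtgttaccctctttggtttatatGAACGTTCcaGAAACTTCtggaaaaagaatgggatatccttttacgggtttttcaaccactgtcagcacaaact
HSP42 holds 1 heat shock match and 3 stress response matches, BTN2 holds 1 heat shock match and SIS1 holds 2. The heat shock matches of BTN2 and SIS1 overlap matches to the Spt10 site described with the histone genes. The heat shock letters occurred in 11 of 21 chaperone promoters, in 7 of the 39 long coding genes at least 2-fold lower (17.9%), in 8 of the 44 at least 2-fold higher (18.2%) and in 12.4% of all 5858 promoters searched. The stress response letters occurred in 16 of those 39 (41.0%), in 16 of the 44 higher genes (36.4%) and in 23.6% of all promoters. HSP30 held neither.

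Other genes among the lowest for which set5Δ was the highest of the 4 strains came from several pathways. CMK2, a calmodulin-dependent protein kinase, stood at 181 FPKM in set5Δ and 32.7 in the double deletion, beside 35.7 in the wild type and 31.1 in set1Δ, a log2 ratio of -2.43. ROQ1, which redirects the ubiquitin ligase Ubr1 under stress, stood at 98.9, 17.8, 36.8 and 17.2 FPKM in the same order, a log2 ratio of -2.41. CIP1, an inhibitor of the cell cycle kinase Cdc28, stood at 62.5, 21.2, 20.9 and 20.9 FPKM in the same order, a log2 ratio of -1.52. The wild type, set1Δ and the double deletion thus lay together for CIP1, and set5Δ lay apart. PIC2, a mitochondrial carrier of phosphate and copper, stood at 87.9, 26.7, 28.9 and 27.4 FPKM in the same order, a log2 ratio of -1.68. YOL014W, DIA1 and YMR316C-A were at 252, 80.7 and 107 FPKM in set5Δ and at 39.8, 12.9 and 20.9 in the double deletion. DIA1 and YMR316C-A overlap each other, and the library kit does not mark strand, so their values cannot be separated.

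**Figure D2:**
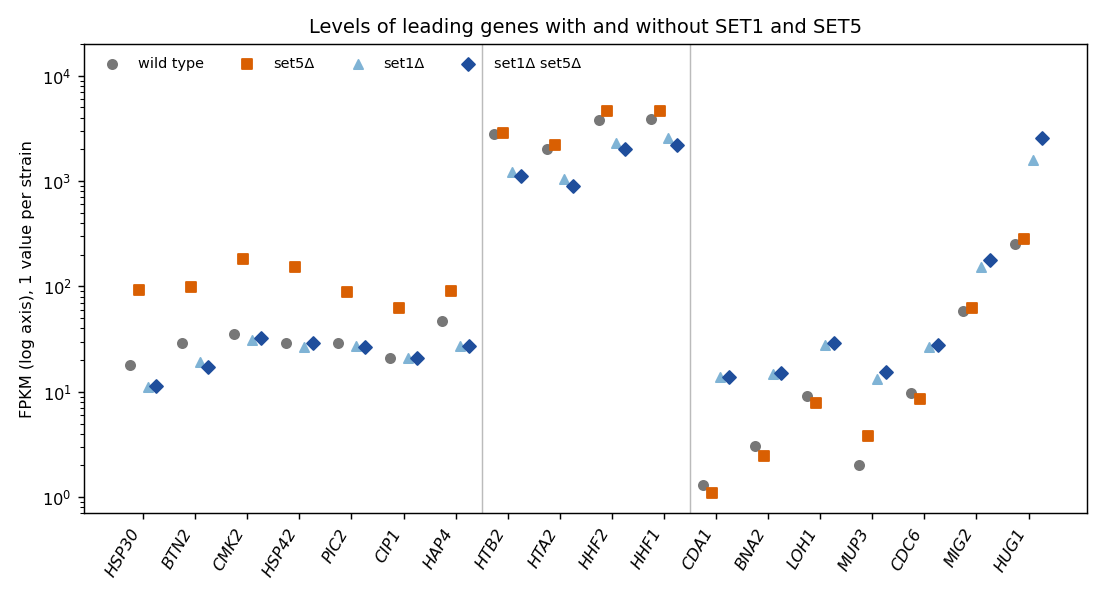
FPKM (log axis) of 18 genes in the wild type, set5Δ, set1Δ and the double deletion, 1 point per strain with no replicate spread. In the left block set5Δ is the highest of the 4 strains for all 7 genes, in the middle block the wild type and set5Δ lie above both strains without SET1, and in the right block both strains without SET1 lie above the other two.

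Lower genes of carbon metabolism and respiration included HAP4, the activating subunit of the factor that drives respiratory genes, at 89.9 FPKM in set5Δ and 27.5 in the double deletion, beside 47.5 in the wild type and 27.4 in set1Δ, a log2 ratio of -1.67. The 39 respiratory chain genes were split, with 19 higher, 20 lower and a median log2 ratio of -0.02 that was 0.10 with quantile-normalized values. In set1Δ over the wild type 32 of the 39 were higher, with a median of 0.24. ENO1, an enolase that shares sequence with ENO2, stood at 1197 FPKM in set5Δ and 460.4 in the double deletion, a log2 ratio of -1.38. TDH1, an isoform of glyceraldehyde-3-phosphate dehydrogenase, stood at 398, 182, 184 and 203 FPKM in set5Δ, the double deletion, the wild type and set1Δ, a log2 ratio of -1.13. Of 16 genes of glycolysis and fermentation, 15 were lower, 2 of them at least 2-fold, as were 1.07% of all features. Their median was -0.42, and -0.15 with quantile-normalized values, beside -0.29 for features of at least 1000 FPKM. The median level of these 16 genes in set5Δ was 6187 FPKM. In set1Δ over the wild type their median was -0.31.

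By its median, the broad set of stress-induced genes did not share the direction of the chaperones. Of 43 such genes 23 were higher and 20 lower, with a median log2 ratio of 0.07 that was -0.09 with quantile-normalized values. At least 2-fold lower were 4 of them and at least 2-fold higher 0, against 1.07% and 2.86% of all features. In set1Δ over the wild type 32 of the 43 were higher, with a median of 0.18. TMA10, which encodes a ribosome-associated protein, was lower by a log2 ratio of -1.32, at 202 FPKM in set5Δ and 80.3 in the double deletion. HSP12, a membrane-associated stress protein, was higher by 0.84, at 70.6 FPKM in set5Δ and 127 in the double deletion, beside 47.0 in the wild type and 91.8 in set1Δ. YRO2, a membrane protein gene on the list of membrane stress and polyamine export genes, was at 78.2, 112, 44.4 and 137 FPKM in the same order. Of the 10 members of that list 7 were lower all the same, with a median of -0.26, against 0.21 for set1Δ over the wild type. The median was -0.0089 over the 8 members whose sequence is at least 95% unique.

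Histone genes were lower in the double deletion throughout. All 10 were lower, 4 of them at least 2-fold, with a median log2 ratio of -0.94 that was -0.67 with quantile-normalized values, beside 0.00 for all features and -0.29 for features of at least 1000 FPKM. At least 2-fold lower were 1.07% of all features and 10 of the 299 features of at least 1000 FPKM. HTB2, a gene of histone H2B, stood at 2839 FPKM in set5Δ and 1109 in the double deletion, beside 2769 in the wild type and 1224 in set1Δ, a log2 ratio of -1.36. HTA2, its H2A partner, stood at 2194, 891, 1998 and 1056 FPKM in the same order, a log2 ratio of -1.30. The ratios of the H4 genes were -1.20 for HHF2 and -1.06 for HHF1, and those of the H3 genes were -0.94 for HHT1 and -0.93 for HHT2. The other H2A and H2B genes, HTA1 and HTB1, had ratios of -0.77 and -0.67. HHO1, the linker histone, and HTZ1, the H2A variant that is not tied to replication, were the least lowered, at -0.39 and -0.34. The 8 core histone genes were lower in both strains without SET1 than in the wild type and set5Δ, and no value of a strain without SET1 reached one of a strain with it. HHF1 and HHF2, and HHT1 and HHT2, share part of their sequence, so reads of each pair may be divided between them. The list's median for set1Δ over the wild type was -0.59.

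Stretches upstream of 4 histone genes are shown because each holds TTCC followed after 6 bases of any kind by TTC, on either strand, which follows the known binding site of Spt10, an activator of histone genes. Capitals mark the match, and the sequences are RefSeq R64. The HTB2 stretch lies at chrII:236092-236192, plus strand, the HHF2 stretch at chrXIV:576327-576426, plus strand, the HHT1 stretch at chrII:255931-256030, plus strand, and the HTA1 stretch at chrIV:915130-915229, plus strand.
HTB2: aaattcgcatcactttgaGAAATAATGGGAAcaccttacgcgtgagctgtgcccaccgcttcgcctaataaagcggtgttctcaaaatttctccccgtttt
HHF2: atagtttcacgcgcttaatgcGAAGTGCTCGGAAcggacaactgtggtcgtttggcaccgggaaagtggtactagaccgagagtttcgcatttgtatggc
HHT1: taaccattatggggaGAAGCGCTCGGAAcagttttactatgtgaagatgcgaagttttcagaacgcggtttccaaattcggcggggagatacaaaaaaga
HTA1: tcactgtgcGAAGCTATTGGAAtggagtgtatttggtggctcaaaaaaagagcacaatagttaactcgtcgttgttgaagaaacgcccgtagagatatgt
All 4 lie between divergent gene pairs, HTA2 with HTB2, HHT2 with HHF2, HHF1 with HHT1, and HTB1 with HTA1. The letters occurred in 7 of the 10 histone promoters, in 10 of the 39 lower genes (25.6%), in 3 of the 44 higher genes (6.82%) and in 8.38% of all promoters. The 39 lower genes include HTB2, HTA2, HHF2 and HHF1, so histone promoters are partly counted again there. They also include BTN2 and SIS1, whose matches to these letters overlap heat shock matches.

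HUG1 (YML058W-A), whose small product inhibits ribonucleotide reductase and which the DNA damage checkpoint induces, had the highest ratio of its list. Its level was 279 FPKM in set5Δ and 2554 in the double deletion, beside 250.1 in the wild type and 1573 in set1Δ, and the SET5 Y402A strain stood at 253. The log2 ratio of the double deletion over set5Δ was 3.19 and that of set1Δ over the wild type 2.65, so both strains without SET1 were high and the other 3 were low. HUG1 has a coding length of 207 bp and is therefore not among the long coding genes. RNR3, the DNA damage-inducible large subunit of ribonucleotide reductase, stood at 4.14 FPKM in set5Δ and 9.30 in the double deletion, beside 3.90 in the wild type and 7.99 in set1Δ, a log2 ratio of 1.0. RNR2 and RNR4, the small subunits, had log2 ratios of 0.62 and 0.72. RNR1, the main large subunit, had -0.09. Of the 10 genes of ribonucleotide reductase and its control, 8 were higher, 2 of them at least 2-fold, with a median of 0.41 that was 0.49 with quantile-normalized values. Of all features 50.5% were higher, and 2.86% were at least 2-fold higher.

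Stretches upstream of 3 of these genes are shown because the repressor Rfx1 is known to act on this regulon through elements that contain the letters GGCAAC. Capitals mark that match on either strand, in RefSeq R64. The HUG1 stretch lies at chrXIII:158530-158629, plus strand, the RNR3 stretch at chrIX:240919-241018, minus strand, and the RNR4 stretch at chrVII:856602-856701, minus strand.
HUG1: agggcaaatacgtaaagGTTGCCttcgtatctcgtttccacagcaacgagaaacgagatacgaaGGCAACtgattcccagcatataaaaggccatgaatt
RNR3: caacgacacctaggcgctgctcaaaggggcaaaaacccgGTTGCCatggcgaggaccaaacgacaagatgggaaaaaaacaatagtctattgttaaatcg
RNR4: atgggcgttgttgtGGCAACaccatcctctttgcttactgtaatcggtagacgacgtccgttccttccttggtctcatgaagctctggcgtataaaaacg
HUG1 holds 2 matches in opposite orientation, and RNR3 and RNR4 hold 1 each. The letters occurred in 5 of 10 promoters of the list and in 8.81% of all promoters. Among long coding genes they occurred in 5 of the 39 at least 2-fold lower (12.8%) and in 5 of the 44 at least 2-fold higher (11.4%). RFX1 itself stood at 9.65 FPKM in set5Δ and 13.1 in the double deletion.

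Cell cycle genes are described by phase. All 12 genes of the G2/M list were higher in the double deletion, 0 of them at least 2-fold, with log2 ratios between 0.33 and 0.80 and a median of 0.46, and the median of set1Δ over the wild type was also 0.46. KIN3, a mitotic kinase, had the highest ratio, with 20.3 FPKM in set5Δ and 36.1 in the double deletion, beside 24.1 in the wild type and 35.5 in set1Δ. CLB2, the main mitotic cyclin, stood at 44.1, 62.0, 45.1 and 65.1 FPKM in the same order. In bulk cultures more cells in a phase and more RNA per cell cannot be told apart. Of 11 genes of the M/G1 list, which act in daughter cell separation, 10 were lower, with a median of -0.23. The lowest was DSE1, a daughter cell wall gene, at 203 FPKM in set5Δ and 118 in the double deletion.

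The 15 genes of G1 and S phase had no common direction, with 8 higher and a median of 0.02. CLB6, an S phase cyclin, was higher by a log2 ratio of 1.42, at 7.68 FPKM in set5Δ and 22.1 in the double deletion, beside 12.7 in the wild type and 18.7 in set1Δ, and CLN3, the cyclin upstream of Start, by 0.96. Among replication licensing genes 11 of 15 were higher, with a median of 0.20. CDC6, which loads the replicative helicase at origins, stood at 8.62 FPKM in set5Δ and 27.6 in the double deletion, beside 9.65 in the wild type and 26.4 in set1Δ, a log2 ratio of 1.57.

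Spore wall and other middle and late sporulation genes were mostly higher, although these haploid cells do not sporulate. CDA1 (YLR307W), a chitin deacetylase of the spore wall, had the highest ratio of all long coding genes, 2.83, but 1.11 with a pseudocount of 10 FPKM, under which YGR079W was higher at 1.87. It stood at 1.09 FPKM in set5Δ and 13.9 in the double deletion, beside 1.29 in the wild type and 13.8 in set1Δ, and the SET5 Y402A strain stood at 0.798. LOH1, a sporulation gene, stood at 7.77, 29.1, 9.06 and 27.6 FPKM in set5Δ, the double deletion, the wild type and set1Δ, a log2 ratio of 1.78. DIT1, which starts the synthesis of spore wall dityrosine, stood at 2.87, 10.01, 2.89 and 8.77 FPKM in the same order, a log2 ratio of 1.51. Of 31 such genes 27 were higher and 4 lower, with 9 at least 2-fold higher and a median of 0.61. At least 2-fold higher were 2.86% of all features and 122 of the 748 features of 1 to 10 FPKM. In set1Δ over the wild type 24 of the 31 were higher, 8 of them at least 2-fold, with a median of 0.52. NDT80, the activator of middle sporulation genes, was lower, at 12.3 FPKM in set5Δ and 8.17 in the double deletion. Most members are scarce: the median was 0.23 over the 11 members of at least 10 FPKM, 0.15 with quantile-normalized values, and 0.33 over all features of 1 to 10 FPKM. The early meiotic genes had a median of 0.06, and -0.29 with quantile-normalized values.

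Genes of NAD synthesis lay on both sides of 0. BNA2, the first enzyme of the route from tryptophan, which overlaps YJR079W, stood at 2.45 FPKM in set5Δ and 14.98 in the double deletion, beside 3.05 in the wild type and 14.7 in set1Δ, a log2 ratio of 2.21. TNA1, the nicotinic acid transporter, stood at 214, 468, 214 and 391 FPKM in the same order, a log2 ratio of 1.12, and BNA4, a later enzyme of the route, had 0.90. The other 10 of 13 members were lower, and the median was -0.35. PNC1, the nicotinamidase, was the lowest at -1.03, with 484 FPKM in set5Δ and 236 in the double deletion, beside 243 in the wild type and 247 in set1Δ.

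Among amino acid genes, those of arginine were the highest as a list, with 11 of 16 higher and a median log2 ratio of 0.54. ARG3, ornithine carbamoyltransferase, stood at 5.09 FPKM in set5Δ and 12.9 in the double deletion, beside 5.99 in the wild type and 12.1 in set1Δ, a log2 ratio of 1.19. ARG1, the enzyme that follows it, had 0.95. The methionine permease genes MUP1 and MUP3 had log2 ratios of 1.33 and 1.76. MUP3 stood at 3.83 FPKM in set5Δ and 15.4 in the double deletion, beside 2.01 in the wild type and 13.3 in set1Δ, and MUP1 at 61.9, 157.5, 93.4 and 151.1 FPKM in the same order. The 27 genes of methionine and sulfate metabolism had a median of 0.17, with 20 higher. ADE17 was the only gene of 14 in purine synthesis at least 2-fold higher, with 1.08, where 2.86% of all features were. The purine list had a median of 0.18. The branched-chain list had 7 of 11 lower and a median of -0.21.

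Iron regulon genes had a median log2 ratio of 0.15, with 20 of 30 higher, where set1Δ over the wild type had a median of -0.17. FIT1 (YDR534C), a cell wall protein that retains iron siderophores, stood at 19.4 FPKM in set5Δ and 58.0 in the double deletion, beside 13.4 in the wild type and 22.7 in set1Δ, a log2 ratio of 1.53. The double deletion was thus above all 3 other strains. HMX1, a heme oxygenase, stood at 15.9, 43.4, 17.2 and 26.4 FPKM in the same order, a log2 ratio of 1.39. SIT1, a siderophore transporter, stood at 172, 316, 183 and 222 FPKM in the same order, a log2 ratio of 0.87, and VHT1, the biotin transporter, had 0.82. Part of the FIT1 sequence is repeated in the genome. The FIT1 promoter is shown because it holds the letters GCACCC, the core of the element bound by the iron factors Aft1 and Aft2, 3 times. Capitals mark the matches in RefSeq R64, chrIV:1505061-1505200, minus strand.
FIT1: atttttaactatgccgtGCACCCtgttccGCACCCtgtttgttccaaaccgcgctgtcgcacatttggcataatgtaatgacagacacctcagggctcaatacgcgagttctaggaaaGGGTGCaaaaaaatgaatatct
The letters occurred in 20 of 30 promoters of the list and in 4.88% of all promoters, but HMX1 had no match in the window. Among long coding genes they occurred in 3 of the 39 at least 2-fold lower (7.69%) and in 2 of the 44 at least 2-fold higher (4.55%).

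Single genes completed the 15 highest ratios among long coding genes. MIG2, a repressor of glucose-repressed genes, stood at 62.7 FPKM in set5Δ and 179 in the double deletion, beside 58.4 in the wild type and 152 in set1Δ, a log2 ratio of 1.5. CYC7, the hypoxic isoform of cytochrome c, stood at 5.61, 19.3, 8.51 and 19.7 FPKM in the same order, a log2 ratio of 1.62. YGR079W, a gene of unknown function, stood at 40.3, 173, 64.03 and 145 FPKM in the same order, a log2 ratio of 2.08. COS12, a subtelomeric membrane protein gene, stood at 7.06, 24.7, 1.86 and 7.53 FPKM in the same order, a log2 ratio of 1.67, while the list of 11 COS genes had a median of -0.18. The ratios of YER084W, YOR338W, YGR035C and YNR064C lay between 1.56 and 2.1. A pair of multidrug transporter genes, named after their values were seen, lay on opposite sides of 0: PDR5 stood at 289 FPKM in set5Δ and 128 in the double deletion, and AQR1 at 76.5 and 205.

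Genes of the ribosome and of its assembly lay on opposite sides of 0. Of 135 cytosolic ribosomal protein genes 134 were lower in the double deletion, 0 of them at least 2-fold, with a median log2 ratio of -0.30, but the median was 0.01 with quantile-normalized values, and features of at least 1000 FPKM as a class had -0.29. Of 102 ribosome biogenesis genes 85 were higher, with a median of 0.17, and 0.23 with quantile-normalized values. SSF1 was the highest at 0.63, with 111 FPKM in set5Δ and 172 in the double deletion. The same medians in set1Δ over the wild type were -0.12 and 0.03. Of 66 mitochondrial ribosomal protein genes 54 were lower, and their median was -0.24.

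Toward the chromosome ends the ratios were higher. The 5 outermost annotated genes at each end had a median log2 ratio of 0.38 over 141 features, 21 of them at least 2-fold higher and 0 lower. At least 2-fold higher were 2.86% of all features and 122 of the 748 features of 1 to 10 FPKM. Genes 6 to 10 from the end had a median of 0.12 over 154 features. The medians of set1Δ over the wild type were 0.07 for the outermost 5 and 0.06 for genes 6 to 10. Among the outermost genes, the 37 whose sequence is at least 95% unique had a median of 0.11. Taken as the outermost 10 genes, 201 of 295 were higher, as were 50.5% of all features. The median log2 ratio of the 295 was 0.22, and 0.06 with quantile-normalized values. The median level of the 295 in set5Δ was 13.4 FPKM. Seripauperin genes, a subtelomeric family of cell wall proteins, had a median of 0.49 with 15 of 17 higher, and 0.22 with quantile-normalized values, beside 0.62 for set1Δ over the wild type. Only 1 of the 17 has at least 95% unique sequence. Ty open reading frames, which belong to the retrotransposons, were higher in 46 of 47 cases, 0 of them at least 2-fold, with a median of 0.45, and 0.46 with quantile-normalized values, beside 0.15 for set1Δ over the wild type. The 8 YRF1 helicase genes of the telomeric repeats were all higher, with a median of 0.33, beside -0.05. None of the Ty or YRF1 features reached 95% unique sequence, so their copies cannot be told apart.

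**Figure D3:**
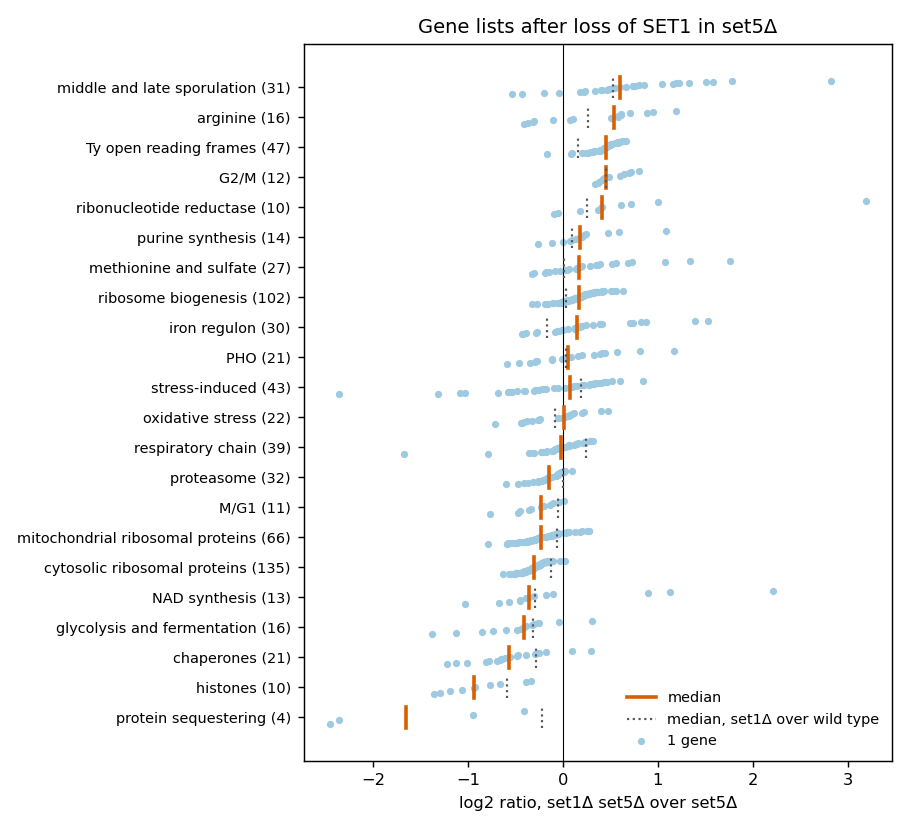
Log2 ratio of the double deletion over set5Δ (x axis) for the members of 22 gene lists, 1 point per gene, with the number of measured members in parentheses. Orange bars are list medians and dotted bars the medians of set1Δ over the wild type; histone and sequestering genes lie left of 0, as do 19 of 21 chaperone genes, and sporulation, arginine and G2/M genes mostly right of it.

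The effect of SET1 loss was then set beside the same loss in a strain that kept SET5. Set1Δ over the wild type and the double deletion over set5Δ use 4 different strain columns, so they share none. There 155 features (2.37%) were 2-fold or more higher and 32 (0.489%) as much lower. Over the 5101 long coding genes measurable in both, without SET1 and SET5, the ratios had a Pearson correlation of 0.79 and a Spearman correlation of 0.79, as a description across genes, which are not independent. Of the higher genes, 41 (0.804%) were at least 2-fold higher in the SET5-less pair, 30 (0.588%) in the pair with SET5, and 19 in both, which is 46.3% of the former and 63.3% of the latter. All 41 had ratios above 0 in set1Δ over the wild type, as did 46.9% of the genes measured. Their median there was 0.95, beside 1.25 in the double deletion over set5Δ. The latter ratio chose the 41 genes, so its median had to pass 2-fold. The medians therefore do not show in which pair the effect was larger.

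Among lower genes, without SET1 and SET5 themselves, 39 were at least 2-fold lower in the double deletion over set5Δ and 7 in set1Δ over the wild type, with 3 in both, which is 7.7% of the former and 42.9% of the latter. With SET1 counted these are 0.784% and 0.157% of the genes measured. Of the 39, 34 were below 0 in set1Δ over the wild type, as were 53.1% of the genes measured. At least 1.5-fold lower there were 18, as were 1.67% of the genes measured. The median of the 39 there was -0.53, beside -1.22 in the double deletion over set5Δ, the ratio that chose them. The 10 largest differences between both ratios all lay on this side. They belonged to HSP30, HSP42, CMK2, DIA1, YOL014W, BTN2, YMR316C-A, PIC2, TPO2 and CIP1, and ran from -2.30 for HSP30 to -1.52 for CIP1. Whether these differences exceed the spread between replicates could not be tested.

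**Figure D4:**
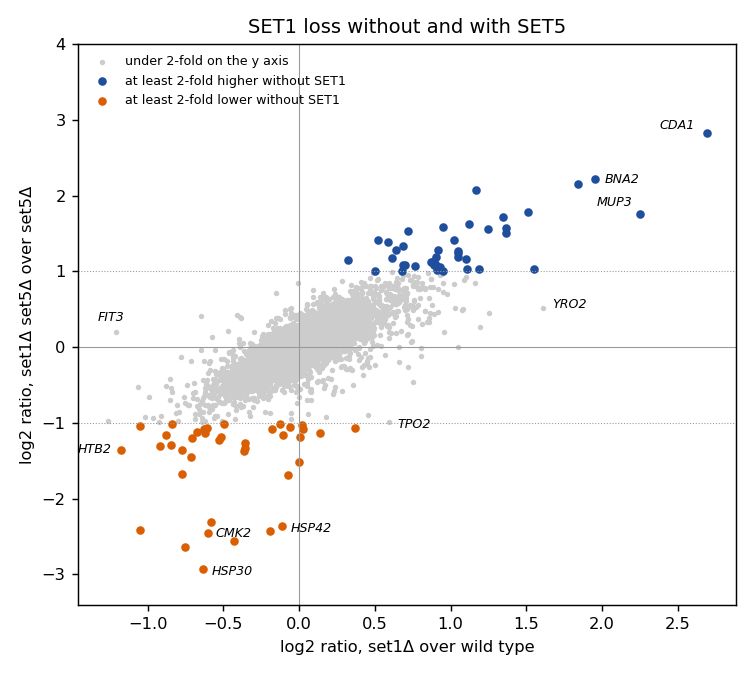
Log2 ratio of the double deletion over set5Δ (y axis) against that of set1Δ over the wild type (x axis), 1 point per long coding gene measurable in both, with dotted lines at 2-fold on the y axis. Genes at least 2-fold higher (blue) lie to the right of 0. The lower genes (orange) lie nearer to 0 on the x axis than on the y axis in most cases, such as HSP42 at -0.11 and -2.36. Both groups were chosen on the y axis.

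Of the 39 lower genes, 23 were at least 1.5-fold above the wild type in set5Δ, 16 were within 1.5-fold and 0 were as much below. The set5Δ value is part of the ratio that chose them, and the share among all long coding genes was not counted. In the double deletion 38 of the 39 were within 1.5-fold of set1Δ. The double deletion value is also part of the ratio that chose them. The share of all long coding genes within 1.5-fold of set1Δ was not counted either. The lower genes had a further feature in the SET5 Y402A strain, whose comparison with the wild type also shares no column with the double deletion over set5Δ. Of the 39 lower genes, 38 were above 0 in SET5 Y402A over the wild type, 27 passed 1.5-fold upward and 23 passed 2-fold, with a median of 1.23, where 47% of the long coding genes were above 0, 2.78% passed 1.5-fold and 1.19% passed 2-fold upward. HSP30 stood at 245 FPKM in SET5 Y402A, HSP42 at 308, CMK2 at 360.3 and BTN2 at 234, all above set5Δ. The histone gene HTB2, at 2955 FPKM, was near its wild-type level there, with a log2 ratio of 0.09. Of the 44 higher genes 29 reached 10 FPKM in SET5 Y402A or the wild type and were above 0 in both, and 6 of these were above 0, with a median of -0.28. Of them 0 passed 1.5-fold upward and 6 passed 1.5-fold downward, as did 0.278% of long coding genes. YGR079W was the lowest of them, at 31.03 FPKM against 64.03 in the wild type, and the only long coding gene at least 2-fold lower there (0.0199%). Over 5036 long coding genes the Pearson correlation was -0.38 and the Spearman correlation -0.22, as a description across genes.

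**Figure D5:**
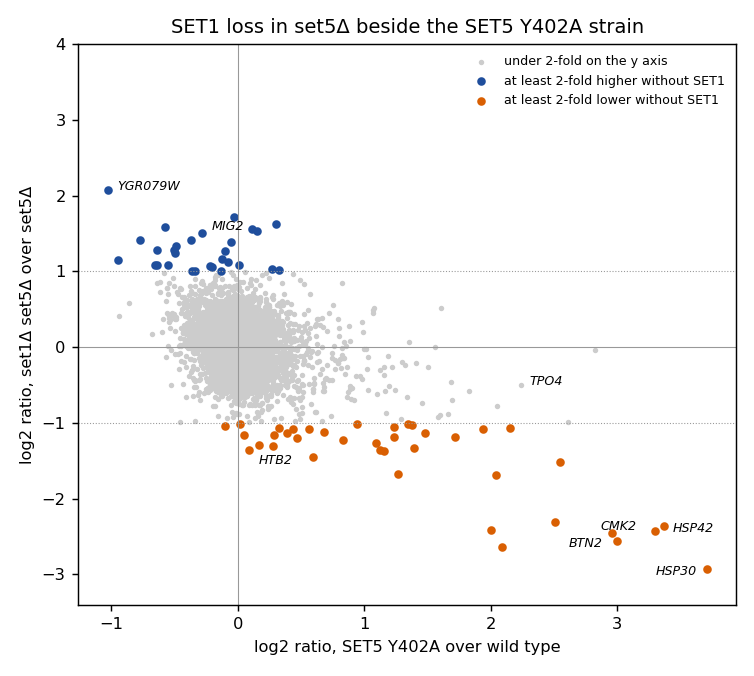
Log2 ratio of the double deletion over set5Δ (y axis) against that of SET5 Y402A over the wild type (x axis), 1 point per long coding gene measurable in both, with dotted lines at 2-fold on the y axis. The lowest genes, with HSP30 at -2.93, lie far to the right, the histone gene HTB2 lies near 0 on the x axis, and the higher genes lie around and left of 0.

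The listed genes of histone methylation other than SET1 had ratios within 2-fold. The other 7 COMPASS subunit genes had log2 ratios between -0.30 for SHG1 and 0.23 for SPP1. JHD2, the demethylase of histone H3 lysine 4, stood at 7.16 FPKM in set5Δ and 11.6 in the double deletion, beside 7.86 in the wild type and 10.6 in set1Δ, a log2 ratio of 0.63, and RPH1, a demethylase of lysine 36, had 0.50. The 10 genes of the list, which holds other histone methyl enzymes and SET5, had a median of 0.26, and SET2 and DOT1 had 0.17 and -0.15. The 16 regulators of histone genes had a median of -0.05, with 0 at least 2-fold in either direction.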

How the data were processed

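RNA of 5 strains was sequenced from TruSeq v2 libraries made from 8 µg of total RNA, and by the labels' protocols this kit keeps no strand information. The deposited FPKM values are the authors' own, 1 per strain, and the table's header names no unit. They were read as FPKM because they are decimals whose column sums exceed what CPM or TPM allow and Cufflinks writes that unit. Per the submitters' processing notes the tools included Cuffdiff and FastQC, TopHat2 2.0.5 and Cufflinks 2.0.2, and also R 2.15.1. The authors' annotation and build, their way of combining replicates and any scaling across strains are, for this table, not given in the sources used here. Depth is unknown, and an exact 0 can be a failed estimate.

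Log2((FPKM + 1)/(FPKM + 1)) ratios were computed in Python 3.11.15 with pandas 2.3.3, over features averaging 1 FPKM or more. The pseudocount understates differences of scarce genes. With 1 value per strain no test was run. Features were matched to RefSeq R64, 5934 by locus tag and 82 by symbol, and 647 were not matched, and the coordinates and sequences come from that assembly, not from the table. Copies were judged by the share of 50-base sequences found once. Outer genes were counted from each chromosome end. The 50 gene lists and the members were chosen with earlier results of these data known. Named genes were SET1, SET5, the 15 highest and 15 lowest long coding genes, the 4 or fewer most changed members of each list, the 10 largest differences from set1Δ over the wild type, and members of lists of at most 12. Others are said to be named after their values were seen, or bear on a list's description. The counting was tested on simulated data. No column was set aside (0).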

Additional observations from a re-analysis of the deposited data

Results flagged for a closer look

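TPO2, a polyamine exporter gene whose sequence is 58.7% unique, stood at 69.5 FPKM in set5Δ and 34.4 in the double deletion, a log2 ratio of -0.99, and at 22.7 FPKM in the wild type and 34.7 in set1Δ, a log2 ratio of 0.59. It drew attention because SET1 loss went with a lower value without SET5 and a higher value with it. The difference of the log2 ratios was -1.59, and with 1 value per strain it was not tested.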

How the results depend on the processing

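With quantile-normalized values 113 features were at least 2-fold higher, with a pseudocount of 10 FPKM 46 features and 17 long coding genes were, and with a mean of at least 10 FPKM 65 features were. A 1.5-fold threshold gave 523 higher and 265 lower features, and 239 and 181 long coding genes. The Pearson correlation of both SET1 ratios over all features was 0.40, and 0.60 without features at 0 in set5Δ or the double deletion. The other counts stayed within 1.5 times of those reported. List medians changed sign with a mean of at least 10 FPKM for galactose (-0.13), gluconeogenesis (-0.031), flocculin (-0.054), stress-induced (-0.019), early meiotic (-0.013) and pheromone response genes (-0.020). With quantile-normalized values they did so for gluconeogenesis (-0.020), silencing (-0.09), flocculins (-0.16), cytosolic ribosomal proteins (0.013), stress-induced (-0.088), oxidative stress (-0.027), early meiotic (-0.29), ergosterol (0.020) and respiratory chain genes (0.095). The cause was not tested. The other 335 list medians kept their sign. Of the values of named genes 16 moved and 1978 moved little. Those that moved did so with another pseudocount: SET1 was at -7.5 and CDA1 at 3.55 with 0.1 FPKM, and with 10 FPKM the values were -1.8 for SET1, -2.3 for HSP30, 1.1 for CDA1, 0.64 for DIT1, 1.1 for LOH1, 1.01 for BNA2, 0.88 for MUP3, 0.91 for CYC7, 1.02 for COS12, 0.85 for YER084W and 0.60 for ARG3, with PAU9, YGL258W-A and YOR289W the others. No paired analysis was possible because the table holds 1 value per strain, and for the same reason no replicate could be left out and no count test was run. Depth is unknown, so counting error cannot be given.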

Other observations

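HIS3, which BY4741 carries only in a partly deleted form, stood at 77.9 FPKM in set5Δ and 132 in the double deletion, beside 84.9 in the wild type and 134 in set1Δ, while LEU2 and MET17 were below 1 FPKM in all 5 strains. Among genes of galactose use, GAL3 and GAL7 stood at 4.37 and 2.39 FPKM in set5Δ and at 9.37 and 5.31 in the double deletion. Of the 7 listed genes 5 were higher, 0 of them at least 2-fold after 1 FPKM was added. The list's median log2 ratio was 0.41, and 0.02 with quantile-normalized values. GAL80 and GAL4, which are above 10 FPKM, had log2 ratios of -0.21 and -0.06. MDH2, the cytosolic malate dehydrogenase of gluconeogenesis, stood at 98.5 FPKM in set5Δ and 203 in the double deletion, beside 78.0 in the wild type and 179 in set1Δ. PHO89, a phosphate transporter gene, stood at 11.9, 28.0, 10.9 and 24.6 FPKM in the same order. Ribosomal RNA features had a median log2 ratio of 0.44 in the double deletion over set5Δ and 1.49 in set1Δ over the wild type. Copies of the same ribosomal RNA share their sequence, so they are not separate measurements. Of the 12 features 10 were higher in the double deletion and 2 lower. The lower ones were RDN18-1 and RDN18-2, each at -0.43, and the highest were RDN5-1 and RDN5-6, each at 0.72. Among small nucleolar RNAs, SNR64 and SNR73, named after their values were seen, were listed at 0 in set5Δ and at 3094 and 488 FPKM in the double deletion.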
